A study of Mus musculus with 4 samples.

Results

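The genes described here are 116 members of families named for the cell cycle and mitosis, out of 6404 mouse genes measured. They were chosen by symbol alone: MCM, ORC and RFC replication genes, CDC genes, cyclins, cyclin-dependent kinases (CDKs) and their inhibitors, E2F factors, CENP genes, KIF kinesins and the Aurora, BUB and polo-like kinase families, except Ccnd1 and Cdkn1a. Of the last 3 families only Bub1, Bub3 and Plk4 are among the 116, and no Aurora gene is. The cells were of EML, a lymphohematopoietic progenitor line of the mouse that is kept in medium with stem cell factor (SCF). SCF binds and activates KIT, a receptor tyrosine kinase. All cells carried a KIT mutant from a retroviral vector, had been selected in geneticin and then for growth in factor-free medium, and were sorted for KIT. Del417-419insY lies in the part of the receptor outside the cell, and D816V in its kinase domain. Each line was 1 transduced population, profiled without an agent or after 48 h in SCF (250 ng/mL), on 1 Affymetrix array per group and 4 in all. How long the cells without SCF were cultured is not known here, so ligand and culture time cannot be told apart.

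A dividing cell assembles MCM helicases on origins in G1, with help of the ORC complex and CDC6. Cyclin D and cyclin E kinases then release E2F factors from the retinoblastoma proteins, and E2F targets, including the licensing genes, are transcribed before S phase. A later set of genes, expressed towards mitosis, encodes the cyclins, kinases, kinesins and kinetochore proteins that build the spindle and separate the chromosomes. In hematopoietic progenitors KIT signalling supports survival and entry into the cycle.

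Of the members, 73 had 1 probe set and 43 had more, which were averaged. Levels are log2 values, and the zero of each probe set is its own, so a gene can be compared across arrays but not with another gene. In bulk RNA, fewer cycling cells and less RNA per cell cannot be told apart. Of 8 progenitor markers 3 were measured, Kit, Gata2 and Lyl1, with mean differences (D816V minus Del417-419insY) of -1.42, 0.46 and -1.16. The cells carried KIT from a vector and were sorted for KIT, and the part of either in the Kit value was not tested. All 5 measured mast cell markers of 6 were higher in D816V cells (limma adjusted p under 0.05). Their median difference was 4.07. Lower in D816V cells by the same test were 3 of 3 measured erythroid markers (median -1.15), 3 of 3 of megakaryocytes (-1.42), 1 of 2 of granulocytes (-1.07) and the 1 measured lymphoid marker (-1.32). The part of these marker differences in the values below was not tested. Absolute levels cannot be read, so these markers do not establish the labelled cell type.

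The symbol rule takes in genes with other roles. By textbook function, 76 members belonged to 7 phases of the cycle, and 40 did not: 7 transport and other kinesins, 8 cyclins and CDKs of transcription or CDK activation, and 25 that share a name with the families. Cdk1, Ccnb1, Plk1 and Aurka would meet the symbol rule but were not analysed here.

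The comparison of the lines asks how cells with an extracellular and a kinase domain mutant differ. Mean differences are over both conditions, and the test was limma with genotype and SCF as additive terms on all 6404 genes. Its error combines the gap between the 2 lines' SCF responses (1 degree of freedom) with a prior pooled over all genes (4.1 degrees of freedom). The SEs thus rest mostly on that prior and are not each gene's own measured error. No replicate array or second population stands behind any p-value. Among the 116 members 32 were lower and 10 higher in D816V cells, and 74 did not pass. Over all genes 24.7% were lower, 17.9% higher and 42.6% called either way. The members' share called, 36.2%, was thus close to that of all genes, with a lower share of higher calls, 8.62%. The median difference of the members was -0.24, against -0.10 for all genes. In both conditions 74 members were below 0 and 24 above it, beside 49.3% and 35.6% of all genes. Most of the differences were small: 4 members were 2-fold or more apart without SCF and 5 with SCF, against 10.5% and 13.8% of all genes. Without SCF 1 was 2-fold higher and 3 lower in D816V cells, beside 6.29% and 4.2% of all genes. With SCF 2 were higher and 3 lower, beside 6.34% and 7.42%.

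**Figure D1:**
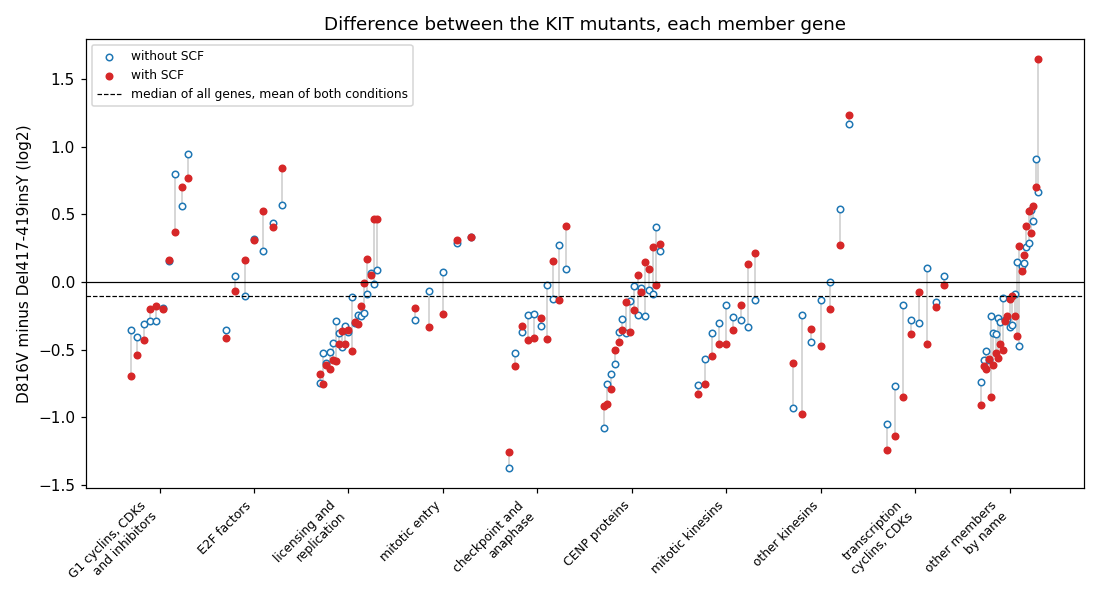
Difference between the lines (D816V minus Del417-419insY, log2) for each member, as open circles without SCF and filled circles with SCF, 1 array per value, grouped by role; grey lines join the conditions and the dashed line marks the median of all genes, -0.10. Licensing genes and mitotic kinesins lie mostly below the dashed line, and E2F factors mostly above it.

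The D816V arrays had lower medians than the Del417-419insY arrays, so the balance depends on scaling. After cyclic loess the members were 22 lower and 17 higher, beside 19.7% and 25.4% of all genes (45.1% called either way). After median centring they were 25 and 18, beside 20.3% and 26.9% (47.2% either way). After quantile normalization they were 25 and 17, beside 21.7% and 23.8% (45.5% either way). Called in the same direction under the deposited scaling and all 3 others were 20 lower and 9 higher members, 17.2% of all genes being called so in each direction. Below, a stable call is one of these. Where arrays of the lines are said not to overlap, this describes the levels and adds no support to a call.

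Genes of G1 were called in both directions as deposited. Of 10 measured cyclins, kinases and inhibitors of G1, 3 were higher and 2 lower in D816V cells, beside 17.9% and 24.7% of all genes. After centring 3 were higher and 2 lower, beside 26.9% and 20.3%. After quantile normalization 3 were higher and 1 lower, beside 23.8% and 21.7%. After cyclic loess 2 were higher and none lower, beside 25.4% and 19.7%. No lower call of the group was stable. Cdkn2d, which encodes the CDK4 and CDK6 inhibitor p19, stood at -0.49 and -0.23 in Del417-419insY cells without and with SCF and at 0.46 and 0.54 in D816V cells. Both D816V arrays were above both others, a 1.81-fold difference (log2 0.86, SE 0.12, limma adjusted p = 0.0065). Ccne1, cyclin E1, which activates CDK2 at the start of S phase, had levels of -0.11 and -0.24 in Del417-419insY cells against 0.45 and 0.46 in D816V cells. It was 1.55-fold higher in D816V cells (SE 0.12 on the log2 scale, limma adjusted p = 0.014), and its 2 probe sets gave 0.59 and 0.67. Both calls were stable.

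The D-type cyclin gene Ccnd2 had levels of 0.79 and 0.41 in Del417-419insY cells against 1.58 and 0.78 in D816V cells, without and with SCF. The D816V array with SCF did not exceed the Del417-419insY array without SCF. Its mean difference of 0.58 passed (SE 0.15, limma adjusted p = 0.031), but after cyclic loess it was 0.24 and did not pass. All 7 probe sets were on the same side, from 0.19 to 0.87. The excluded D cyclin Ccnd1 was 2.49-fold lower in D816V cells, and the excluded inhibitor gene Cdkn1a 1.48-fold higher, both past the test. As deposited, the 2 D cyclin genes were thus called in opposite directions.

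The kinase genes Cdk4 and Cdk2 were called lower as deposited. Cdk4, the partner of D cyclins, was at -0.15 and 0.11 in Del417-419insY cells against -0.55 and -0.43 in D816V cells, and Cdk2 at -0.24 and -0.05 against -0.59 and -0.75. Their mean differences were -0.47 and -0.52 (limma adjusted p = 0.030 and 0.034), and neither passed after cyclic loess. Cdk6 was at -0.20, and the inhibitor genes Cdkn1b and Cdkn2c at -0.24 and -0.23, none past the test.

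The E2F genes were the only phase with a median above 0 as deposited. Of 7 measured, 2 were higher and 1 lower in D816V cells, beside 17.9% and 24.7% of all genes. The group median of 0.31 was 0.43 after centring, 0.44 after quantile normalization and 0.48 after cyclic loess. E2f5, a repressor-type factor that binds pocket proteins, stood at 0.20 and 0.03 in Del417-419insY cells and at 0.76 and 0.87 in D816V cells. The arrays of the lines did not overlap, and the difference was 1.63-fold (log2 0.70, SE 0.13, limma adjusted p = 0.013). E2f4, of the same class, was at 0.42 (limma adjusted p = 0.038). Both were stable. The activator E2f2 was lower, by -0.38 (limma adjusted p = 0.048), a call lost under all 3 other scalings. The activators E2f1 and E2f3 were at 0.03 and 0.38, and neither passed as deposited. E2f3 was called higher under each other scaling, at 0.50, 0.49 and 0.54 after centring, quantile normalization and cyclic loess (limma adjusted p = 0.017, 0.024 and 0.017). E2f7, an atypical repressor, was at 0.31 as deposited and was also called under those 3, so that each gave 4 of 7 higher and none lower, beside 26.9%, 23.8% and 25.4% of all genes higher.

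Origin licensing and replication genes were lower in D816V cells where they passed. The group, shortened in places to licensing genes, also holds RFC replication genes and Cdca7. Of 19 measured, 9 were lower and none higher, beside 24.7% and 17.9% of all genes. Differences were below 0 in both conditions in 15, beside 49.3% of all genes. The group median was -0.36 as deposited, -0.25 after centring, -0.20 after quantile normalization and -0.11 after cyclic loess, where the median of all genes was 0.04. After cyclic loess 4 of 19 were lower and 1, Orc1, was higher, a lower share close to the 19.7% of all genes. Mcm6, a subunit of the MCM2 to MCM7 helicase, stood at 0.36 and 0.02 in Del417-419insY cells and at -0.39 and -0.66 in D816V cells. It was 1.64-fold lower (log2 -0.71, SE 0.12, limma adjusted p = 0.0092), with -0.75 and -0.68 from its 2 probe sets. The origin recognition genes Orc5, Orc2 and Orc3 were at -0.64, -0.61 and -0.58 (limma adjusted p = 0.015, 0.014 and 0.017). These 4 genes made up the stable calls of the group, 21.1% of it, beside 17.2% of all genes. Orc2 had levels of 0.27 and 0.11 in Del417-419insY cells against -0.33 and -0.50 in D816V cells, with no overlap.

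The other helicase subunits differed less. Mcm5 and Mcm3 were at -0.42 and -0.39 (limma adjusted p = 0.039 and 0.048), and both lost the call under each other scaling. Mcm2, Mcm7 and Mcm4 were at -0.36, -0.28 and -0.12 and did not pass. The 3 probe sets of Mcm5 ranged from -0.78 to -0.12. Orc1 went the other way at 0.28, not past the test as deposited but called higher after cyclic loess (0.47, limma adjusted p = 0.038), and the loader gene Cdc6 was at -0.30, also not past it.

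Genes of mitotic entry did not differ by the test. None of the 5 measured passed, by limma at an adjusted p under 0.05, where 42.6% of all genes were called. Ccna2, cyclin A2, was at 0.30 and Cdkn3, a phosphatase of CDKs, at 0.33, while the CDK-activating phosphatase gene Cdc25c was at -0.24 and Ccnf, an F-box cyclin, at -0.20. After centring and after quantile normalization 2 of the 5 were called higher, and after cyclic loess 1, beside 26.9%, 23.8% and 25.4% of all genes. The group median of -0.08 turned to 0.04, 0.09 and 0.16 after centring, quantile normalization and cyclic loess.

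In the spindle checkpoint and anaphase group 2 of 10 were lower and none higher, beside 24.7% and 17.9% of all genes. Cdc14b, a phosphatase whose yeast relative drives mitotic exit, had levels of -0.08 and 0.04 in Del417-419insY cells against -1.46 and -1.22 in D816V cells. This 2.49-fold gap was the largest of the 76 phase members (log2 -1.31, SE 0.12, limma adjusted p = 0.0017), and both probe sets showed it, at -1.39 and -1.24. Cdc26, a subunit of the anaphase-promoting complex, was lower by -0.57 (limma adjusted p = 0.017). Another subunit gene, Cdc27, was at -0.34 and did not pass. The checkpoint genes Bub1 and Bub3 were at 0.02 and -0.34, neither past the test.

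Of 16 measured CENP genes 5 were lower and none higher, a lower share of 31.2%, near the 24.7% of all genes. Each other scaling gave 4 of 16 lower and 1 higher, beside 19.7% to 21.7% of all genes lower, and 4 lower calls were stable. Cenpf, a large protein of the outer kinetochore, had levels of 0.52 and 0.61 in Del417-419insY cells against -0.56 and -0.30 in D816V cells, a 2.00-fold gap (SE 0.12 on the log2 scale, limma adjusted p = 0.0040). Cenpv, Cenpw and Cenpl were at -0.83, -0.73 and -0.55 (limma adjusted p = 0.0067, 0.0090 and 0.019). The centromeric histone gene Cenpa was at 0.19 and did not pass.

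Mitotic kinesins included 3 lower and no higher genes of 9, beside 24.7% and 17.9% of all genes. Kif20b, which acts in cytokinesis, stood at 0.37 and 0.47 in Del417-419insY cells and at -0.39 and -0.36 in D816V cells, 1.74-fold lower (SE 0.11 on the log2 scale, limma adjusted p = 0.0070). Kif11, the motor that separates spindle poles, was at 0.37 and 0.56 against -0.20 and -0.20, a difference of -0.66 (SE 0.12, limma adjusted p = 0.013). Both were stable, and the arrays of the lines did not overlap. Kif23 was at -0.46 (limma adjusted p = 0.034), a call lost after centring and after cyclic loess, and Kif20a at -0.38, which did not pass. The group median stayed between -0.31 and -0.19 under the 4 scalings.

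Among the 40 members outside the phases 5 were higher and 10 lower, beside 17.9% and 24.7% of all genes. Kif17, a kinesin of cargo transport, was 2.29-fold higher in D816V cells, with levels of -0.97 and -0.58 against 0.20 and 0.65 (limma adjusted p = 0.0021). Kif21b, a kinesin that regulates microtubule growth, was at -0.77 (limma adjusted p = 0.012). Ccnt2 and Cdk19, which act in transcription elongation and in the Mediator kinase module, were 2.21-fold and 1.94-fold lower (limma adjusted p = 0.0029 and 0.0074), and the 5 probe sets of Ccnt2 ranged from -1.65 to -0.83. Ccnb1ip1, a ubiquitin ligase that binds cyclin B1, was at 1.15 (SE 0.25, limma adjusted p = 0.020). Its gap was 0.66 without SCF and 1.65 with SCF. Cdk5r1, an activator of CDK5, Cdk17 and Cdc42ep3, an effector of the GTPase CDC42, were at -0.82, -0.60 and 0.80, all past the test. These 8 calls held under all 4 scalings.

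Other cell cycle genes outside the families were read from a fixed list of 53 measured. Of these 15 were lower and 1 was higher, against 24.7% and 17.9% of all genes. The list includes Ccnd1 and Cdkn1a. The most different after Ccnd1 were Lin9, a subunit of the DREAM and MuvB complexes, at -0.85, Nuf2, a kinetochore protein, at -0.81, the primase subunit gene Prim2 at -0.75, Myb at -0.68 and the polymerase alpha subunit gene Pola2 at -0.65. All passed the limma test. After cyclic loess 9 of 53 were lower and 5 higher, beside 19.7% and 25.4% of all genes, so that the lower share was then below that of all genes.

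Arrays with SCF set against those without it ask what the ligand adds in each line. No member passed the limma test for SCF, and no gene of the 6404 did, 0%. At an unadjusted p under 0.05 there were 25 members, against 18.5% of all genes, and the smallest adjusted p of a member was 0.13, for E2f8. After median centring 2 members were called higher and 2 lower, and with the probe set of highest mean 4 were lower, each beside 4% of all genes. The other 6 alternatives called no member, cyclic loess among them, which called 0.656% of all genes. What follows describes values in the lines, which share no array in this comparison.

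**Figure D2:**
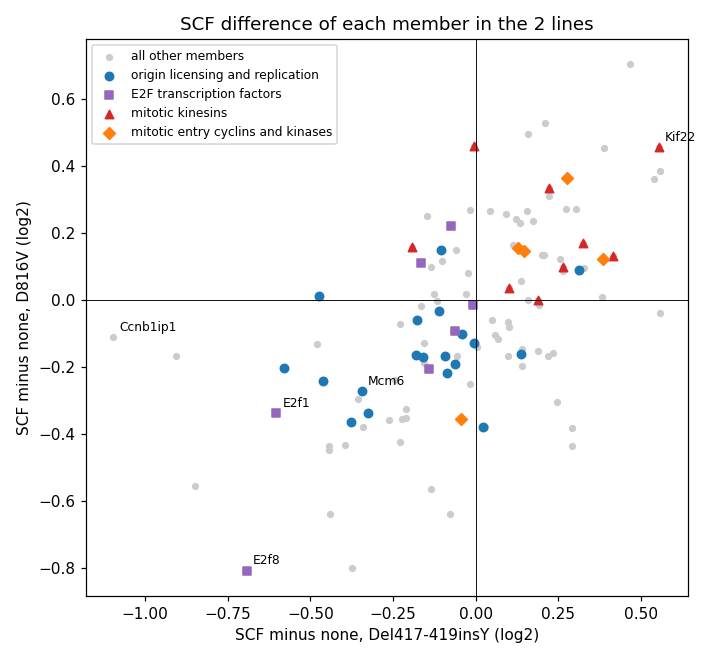
SCF difference (with minus without, log2) in Del417-419insY cells (horizontal) and D816V cells (vertical), 1 point per member, 1 array per condition. Licensing genes and E2F factors lie mostly at the lower left, mitotic kinesins and mitotic entry genes mostly at the upper right, and none of these differences passed the test.

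As deposited, licensing genes and mitotic kinesins had medians on opposite sides in both lines. Of 19 licensing and replication genes 14 had SCF differences below 0 in both lines and 1 above 0 in both, against 33.2% and 32.3% of all genes. Of 9 mitotic kinesins none was below 0 in both lines and 6 were above 0 in both. These 9 depend on the symbol rule. Kifc1, a kinesin gene of the list outside the families, was below 0 in both, at -0.31 and -0.78. Group medians in Del417-419insY and D816V cells were -0.11 and -0.17 for licensing genes and 0.22 and 0.16 for mitotic kinesins, with 0.03 and -0.05 for all genes. After cyclic loess they were -0.12 and -0.05 for licensing genes and 0.27 and 0.24 for kinesins, with 0.06 and 0.05 for all genes. After quantile normalization the licensing medians were -0.09 and 0.003, so the one in D816V cells was no longer below 0, and those of kinesins 0.29 and 0.25. Licensing genes below 0 in both lines numbered 11 after centring and 8 after quantile normalization or cyclic loess, beside 25.3%, 25.2% and 26% of all genes. Kinesins above 0 in both lines numbered 8 under each of the 3, where the share of all genes was also larger, at 42.2%, 43.2% and 41.9%. Members of a phase are not independent replicates of a culture.

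Of the 19 licensing genes 13 were highest in Del417-419insY cells without SCF and 14 lowest in D816V cells with SCF, as were 24.1% and 36.9% of all genes. Within the group the MCM2 to MCM7 helicase genes had 1 order of arrays. All 6 were highest in Del417-419insY cells without SCF and lowest in D816V cells with SCF, an order found in 18.2% of all genes. It held in 5 of the 6 after centring and in 3 after quantile normalization or cyclic loess, beside 12.0%, 11.0% and 11.7% of all genes. The order is that of averaged probe sets. In Mcm5 1 probe set was highest in Del417-419insY cells with SCF (0.44) and lowest in D816V cells without SCF (-0.43). A probe set of Mcm4 was lowest in Del417-419insY cells with SCF (-0.40), and a probe set of Mcm7 in D816V cells without SCF (-0.36). Over the 6 genes the median level was -0.06 and -0.23 in Del417-419insY cells without and with SCF and -0.41 and -0.61 in D816V cells. The SCF differences of Mcm4 were -0.46 and -0.24 and those of Mcm6 -0.34 and -0.27. The probe sets of Mcm6 did not show the same size, with means of -0.53 and -0.09. Cdc6 stood at -0.38 and -0.37, and Orc1 at -0.58 and -0.20.

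**Figure D3:**
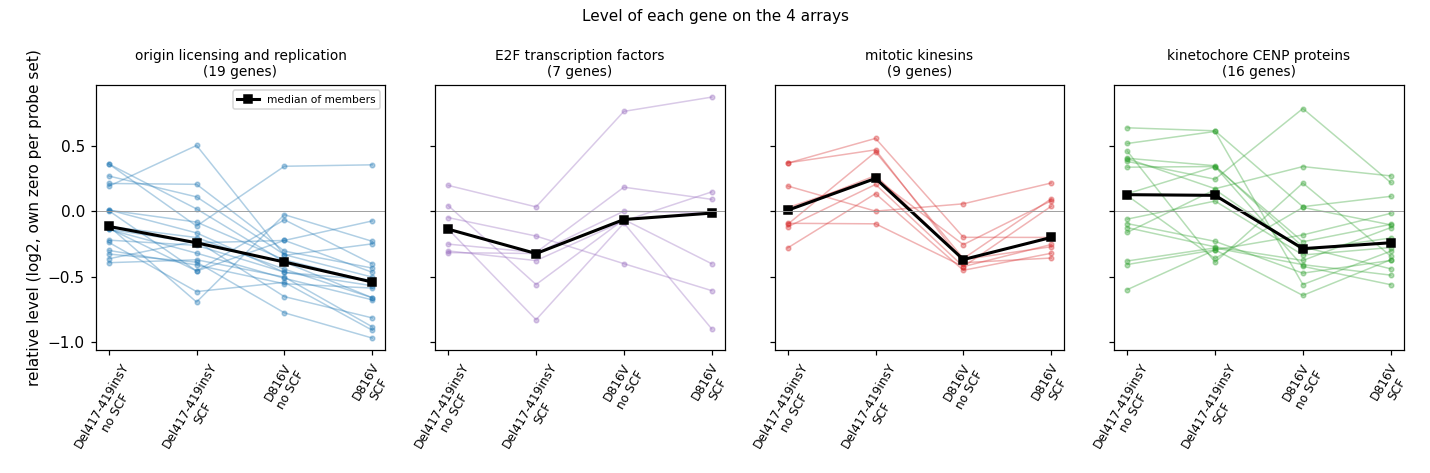
Relative log2 level of each gene (thin lines) and the median of the group (squares) on the 4 arrays, for 4 groups. Median licensing levels go from -0.12 to -0.54, and mitotic kinesins are highest with SCF in Del417-419insY cells, with a median of 0.25.

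The mitotic kinesins had another order, and 7 of 9 were highest in Del417-419insY cells with SCF, as were 31.5% of all genes. In 6 of 9 the array of Del417-419insY with SCF was highest and that of D816V without SCF lowest, as in 14.9% of all genes. The count was 7 after centring, quantile normalization or cyclic loess, beside 17.0%, 20.0% and 16.9% of all genes. Kif22, a chromosome-arm motor, stood at -0.10 and 0.45 in Del417-419insY cells without and with SCF and at -0.36 and 0.10 in D816V cells. Its SCF differences were 0.55 and 0.46, with both probe sets above 0 (limma adjusted p = 0.16). Kif4, a chromokinesin, was at 0.22 and 0.34. Mitotic genes of other groups lay on both sides. Above 0 in both lines were Cdca8, borealin of the chromosomal passenger complex, at 0.54 and 0.36, Cdca3 at 0.21 and 0.53, Cdc25c at 0.28 and 0.36 and Ccnf at 0.39 and 0.12. Below 0 in both were Cdc26 at -0.26 and -0.36 and Plk4, the kinase of centriole duplication, at -0.04 and -0.36. Of the 16 CENP genes 6 were above 0 in both lines and 5 below it. Cenpe, counted below 0, had probe sets with mean SCF differences of 0.54 and -0.84.

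The 2 largest mean SCF differences among the phase members were those of E2f8 and Cenpk. E2f8, a repressor that acts late in S phase, stood at -0.14 and -0.83 in Del417-419insY cells and at -0.09 and -0.90 in D816V cells, without and with SCF. Both arrays with SCF were below both without, a mean difference of -0.75 (SE 0.12, limma adjusted p = 0.13), from 1 probe set. Cenpk was at -0.85 and -0.56 (limma adjusted p = 0.14), with -0.77 and -0.64 from its 2 probe sets, and Cenpa at -0.14 and -0.56. E2f1 was at -0.60 and -0.34, Ccnd2 at -0.38 and -0.80 and Cdk6 at -0.44 and -0.45. In Cdk6 1 probe set was at 0.02 and another at -1.26. Outside the phases, Ccnb1ip1 was the only member 2-fold apart with SCF in a line, at -1.10 in Del417-419insY and -0.11 in D816V cells, where 0.874% and 1.64% of all genes were 2-fold apart (0.547% and 1.31% lower with SCF). Cdk5 was at 0.47 and 0.70, Kif5b, a cargo kinesin, at -0.44 and -0.64, and the transcription kinase genes Cdk12 and Cdk13 at -0.40 and -0.43, and -0.08 and -0.64.

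Letters of the promoters are set beside the licensing genes and the mitotic kinesins, whose SCF medians had opposite signs as deposited. RefSeq windows of 250 bases before to 50 after a gene's start (GRCm38.p6) were found for 97 of the 116 members, and 81 had a single window. The E2F words were TTTGGCGC, TTTCCCGC, TTTGCCGC and TTTCGCGC, the cell cycle homology region (CHR) word was TTTGAA, and CCAAT was the third, on both strands. E2F words were in 8 of 13 licensing promoters, 61.5%, and in 1 of 8 mitotic kinesin promoters, 12.5%, against 5.1% of 4140 measured genes and 2.32% of all 22862 single windows. Cdca7 and Rfc3 are among the 8 promoters of the licensing and replication group. The CHR word was in 1 of 13 licensing promoters, 7.69%, and 6 of 8 kinesin promoters, 75.0%, against 11.5% and 18.5%. In the 150 bases before the start alone the E2F share of licensing promoters was 53.8% and the CHR share of kinesin promoters 37.5%, against 2.9% and 5.14% of measured genes. In the 300 base window CCAAT was in 69.2% and 62.5%, against 39.6% and 38.2%. E2F sites are known in genes of the start of S phase and CHR elements in genes of mitosis, and a match of letters is not a bound site.

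Shown are the 150 bases before the start for 3 licensing genes and 3 mitotic kinesins that hold their group's word there, chosen after their values were seen. All run 5′ to 3′ on the gene's strand, with E2F, CHR and CCAAT words in capitals.
Mcm6: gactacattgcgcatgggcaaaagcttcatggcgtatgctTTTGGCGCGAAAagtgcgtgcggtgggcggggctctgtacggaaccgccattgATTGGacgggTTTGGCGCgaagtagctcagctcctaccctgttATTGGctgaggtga
Cdc6: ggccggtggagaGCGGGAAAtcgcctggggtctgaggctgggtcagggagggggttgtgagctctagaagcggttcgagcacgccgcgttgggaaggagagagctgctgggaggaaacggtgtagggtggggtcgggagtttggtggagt
Orc1: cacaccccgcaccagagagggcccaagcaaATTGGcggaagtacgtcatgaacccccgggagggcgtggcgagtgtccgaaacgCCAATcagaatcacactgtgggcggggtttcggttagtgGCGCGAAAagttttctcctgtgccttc
Kif22: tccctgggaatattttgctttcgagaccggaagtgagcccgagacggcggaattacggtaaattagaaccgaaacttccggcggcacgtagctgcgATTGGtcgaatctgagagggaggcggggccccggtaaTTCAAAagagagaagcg
Kif11: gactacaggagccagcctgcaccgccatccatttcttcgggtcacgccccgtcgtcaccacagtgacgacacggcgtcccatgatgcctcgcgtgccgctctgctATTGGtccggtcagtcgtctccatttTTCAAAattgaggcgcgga
Kif2c: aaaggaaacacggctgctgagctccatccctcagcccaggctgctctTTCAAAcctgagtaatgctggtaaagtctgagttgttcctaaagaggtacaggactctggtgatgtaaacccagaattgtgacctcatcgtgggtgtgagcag

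These windows are chr1:128359706-128359855 on the minus strand for Mcm6, chr11:98908001-98908150 on the plus strand for Cdc6 and chr4:108579304-108579453 on the plus strand for Orc1. For the kinesins they are chr7:127042421-127042570 on the minus strand for Kif22, chr19:37376232-37376381 on the plus strand for Kif11 and chr4:117178773-117178922 on the minus strand for Kif2c. Counted back from the start, the Mcm6 window has E2F words beginning at -110, -106 and -47, of which the first 2 overlap. Cdc6 has 1 E2F word at -138 and Orc1 1 at -27. The CHR word, read on the other strand as TTCAAA, begins at -17 in Kif22, at -19 in Kif11 and at -103 in Kif2c. In Kif22 and Kif11 a CCAAT word lies upstream of it, at -54 and -45.

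**Figure D4:**
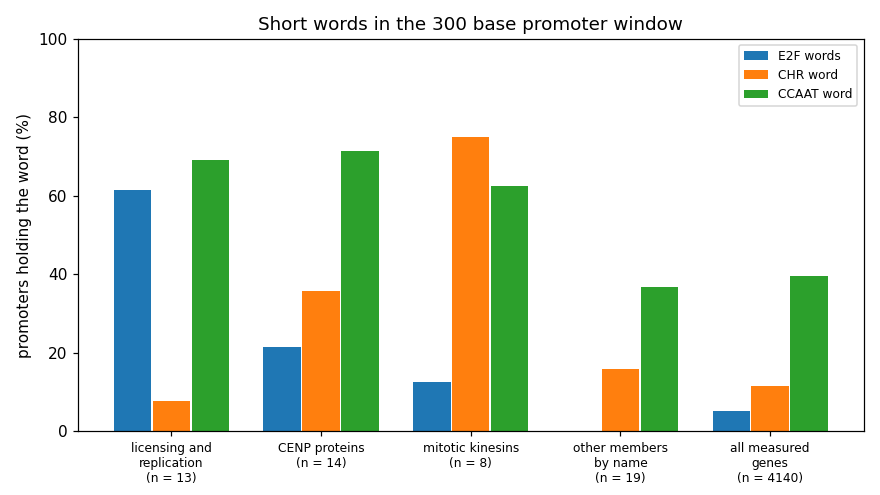
Share of promoters (percent) that hold an E2F word, the CHR word or CCAAT in the 300 base window, for 4 groups of members and for all measured genes with a single window; n is the number of promoters. E2F words were in 61.5% of licensing promoters and the CHR word in 75.0% of mitotic kinesin promoters.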

How the data were processed

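RNA of 4 EML cultures was hybridised to Affymetrix mouse arrays. The submitters' processing notes name RMA for the deposited log2 values. Its version, the zero of each probe set and the filter that left 10861 probe sets are not given in the sources used here, and base 2 is taken from RMA. No replicate array existed. Brightness was not used here, so dim probe sets could not be left out. Probe sets with 1 platform symbol (9633) gave 6404 genes by averaging; 264 had several symbols and 964 none.

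Differences were tested with limma 3.58.1 in R 4.3.3 (lmFit, eBayes, genotype + SCF, 4 arrays, 1 residual degree of freedom), Benjamini-Hochberg adjusted over all genes, threshold 0.05, two-sided, and checked on simulated data. Alternatives were median centring, quantile normalization, cyclic loess, the probe set of highest mean, a 25th percentile filter, a single-term model, an intensity trend and robust eBayes. The filter ranks relative values, so it does not remove dim genes.

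The members, phases and lists were chosen with earlier results of these data known. Named genes were mainly those with the largest differences per group (up to 4 by genotype, 2 by SCF), those 2-fold apart and a fixed core. Added were 6 genes of the outside list with Ccnd1 and Cdkn1a. Probe sets of opposite sign by genotype, above a size minimum, were a further rule, which no member met.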

Additional observations from a re-analysis of the deposited data

Results flagged for a closer look

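Results in which the 2 lines took opposite sides with SCF are given here, where both differences were at least 0.1 for a group median or 0.25 for a gene. With 1 array per group, the difference between the lines was not tested. The transport and other kinesins had median SCF differences on opposite sides, 0.14 for Del417-419insY and -0.17 for D816V. The D816V median was -0.07 after centring, -0.06 after quantile normalization and 0.0016 after cyclic loess, under the 0.1 minimum in all 3 and above 0 in the last. Kif1b, a kinesin of organelle transport, was at 0.29 and -0.44, and Cdk7, the CDK-activating kinase, at 0.29 and -0.38. Each of these 2 genes had 1 probe set.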

How the results depend on the processing

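Between the lines, the members called higher (10 as deposited) were 18 after centring, 17 after quantile normalization, 17 after cyclic loess and 5 with only the term tested, which also gave 15 in place of 32 lower. For SCF, centring gave 2 higher and 2 lower and the probe set of highest mean 4 lower. Members 2-fold apart between the lines became 17 without SCF (4) and 29 with SCF (5) at a 1.5-fold rule, and 3 with SCF under the 25th percentile filter. For SCF in Del417-419insY (1) they became 2 after quantile normalization, 3 with the highest probe set and 5 at 1.5-fold, and in D816V (0) 1 with the highest probe set and 5 at 1.5-fold.

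Group medians relative to all genes moved as follows between the lines. Under the filter they were 0.023 for G1, -0.377 for licensing, -0.256 for checkpoint, -0.212 for CENP, -0.308 for other kinesins and -0.184 for other family members. Licensing was -0.204 after quantile normalization, -0.155 after loess and -0.224 with the highest probe set. Transcription cyclins and kinases were -0.257 after quantile normalization and -0.325 after loess, and other family members -0.21 with the highest probe set. For SCF, G1 was -0.003 after loess, 0.016 with the highest probe set and 0.055 under the filter. Licensing was -0.107 after quantile normalization, -0.124 after loess, -0.18 with the highest probe set and -0.17 under the filter. Mitotic kinesins were 0.214, 0.227 and 0.224 after quantile normalization, loess and the filter. Under the filter transcription cyclins and kinases were -0.192 and other family members -0.065. Of 100 such medians 8 changed sign from that as deposited, the positive G1 values above among them. Another was mitotic entry between the lines with the highest probe set, at -0.008. The rest were for SCF. Other kinesins were 0.004 after quantile normalization, 0.013 with the highest probe set and 0.072 under the filter. Transcription cyclins and kinases were 0.018 after quantile normalization. In the 150 base window, all promoters held E2F words in 1.28% and the CHR word in 9.46%. The filter tests fewer genes, and the cause of the other changes was not tested. Of the alternatives for single named genes, 489 kept the side of the threshold, 31 lost the call and 30 gained one. The 489 include changes of sign in genes without a call. Cenpk, for example, was at -0.098 as deposited and at 0.021 after centring.

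Leaving out an array leaves no residual degree of freedom, so no such test was run. No paired analysis was possible because each group has 1 array and the labels carry no replicate numbers. Neither repeat cultures nor brightness over background bear on any value, which limits what small differences can show.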
